A study of Mus musculus with 8 samples.

Results

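The genes described here are 10 that license chromosomal origins for replication and start the replicative helicase. They are the subunits *Mcm2*, *Mcm3*, *Mcm4*, *Mcm5*, *Mcm6* and *Mcm7*, and *Cdc6*, *Cdt1*, *Cdc45* and *Gmnn*. They were taken by symbol from the deposited table of 18635 genes, and all 10 were found there and passed the filter on low values, as 10 of the 13629 genes tested. RNA was sequenced from tumor-educated macrophages (TEMs), which are bone marrow-derived macrophages (BMDMs) kept for 24 h in medium conditioned by the murine mesothelioma line AE17 (AE17-TCM). In 4 samples the cells carried the floxed *Phgdh* alleles alone (*Phgdh* fl/fl, here floxed TEMs), and in 4 they also carried a Cre recombinase expressed from the *Cx3cr1* locus (*Phgdh* fl/fl *Cx3cr1*-Cre, here Cre TEMs). *Phgdh* encodes the first enzyme of serine synthesis from glucose. The groups came from littermates, so that the floxed alleles and AE17-TCM are shared by all 8 samples, and the Cre allele is a knock-in at *Cx3cr1* that only 1 of the groups carries. The comparison asks how the transcripts of TEMs differed between these genotypes. Loss of PHGDH and the Cre allele at *Cx3cr1* cannot be told apart in it.

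Each value below is a normalized count, the read count of a gene divided by a size factor of the sample, and each log2 fold change sets Cre TEMs against floxed TEMs on the log2(normalized count + 1) scale, tested with limma over all genes with Benjamini-Hochberg adjustment. The reads recovered from these values totalled between 38219563 and 47027420 per sample. *Phgdh* had 119, 128.9, 116.8 and 104.9 normalized counts in floxed TEMs and 32.6, 35.3, 14.2 and 26.3 in Cre TEMs, a log2 fold change of -2.15 (standard error 0.21, adjusted p = 5.1e-08). The genotypes did not overlap, and some transcript was counted in every sample with the Cre. The summed macrophage markers (*Adgre1*, *Itgam*, *Csf1r*, *Cd68*, *Lyz2*, *Mertk*, *Fcgr1*) lay between 986516 and 1075524 normalized counts in floxed TEMs. With the Cre the sum lay between 973612 and 1048997. *Lyz2* made up most of this sum in both genotypes, so that the sum says little about the other markers. Of the 7 markers, 3 were lower at a limma adjusted p under 0.05, against 20.3% of all genes tested, and 0 were higher. A list of 36 markers covered neutrophils, progenitors, dendritic cells, lymphocytes, erythroid cells and fibroblasts or mesothelium. Of these, 20 had no values among the 18635 genes, including *Mpo*, *Ly6g*, *Cd3e* and *Msln*. The neutrophil marker *S100a8* was the highest of the remaining 16, with 466.7 to 574.7 in floxed TEMs and 575.7 to 631.3 with the Cre. It was higher at a limma adjusted p under 0.05. It was also the only 1 of the 7 listed markers of neutrophils and their precursors that had values. The part of these cells in the results below was not tested. In such bulk samples, fewer cells in a phase of the cell cycle and less RNA per cell cannot be told apart.

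Before a cell can copy its DNA, each origin has to be licensed. The origin recognition complex and CDC6 sit at the origin in G1 phase, and together with CDT1 they close a ring of the MCM subunits around the DNA. MCM2 to MCM7 form this ring, each being an ATPase of the same family, and it stays inactive until CDC45 and the GINS complex join it in S phase to make the active helicase, called CMG. Geminin, the product of *Gmnn*, binds CDT1 outside G1 and so keeps an origin from being licensed again. Genes of this group are known targets of E2F transcription factors, and their transcripts rise as cells leave quiescence. BMDMs are cells of limited proliferation that can divide under growth factors.

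The promoters were compared by the words they hold. RefSeq windows from 250 bases before to 50 after the start (build GRCm38.p6, which is mm10) were held for 8 of the 10 genes, for all but *Mcm4* and *Gmnn*. They were searched on both strands for 4 words of the E2F type (TTTCCCGC, TTTGGCGC, TTTGCCGC and TTTCGCGC), which can overlap each other. Of these 8 genes 6 had at least 1 of these words, *Mcm3*, *Mcm5*, *Mcm6*, *Mcm7*, *Cdc6* and *Cdt1*, against 2.60% of all 27025 genes with a window and 2.26% of all 32851 windows. Among the 9918 genes tested here that have a window, the share was 4.77%. The windows of *Mcm2* and *Cdc45* held none of the 4. The stretches that hold them are printed 5′ to 3′ on the strand of the gene, with the words in capitals, because these words are rare over all windows and stood in most of the windows held for these genes. The more common words CCAAT (in 41.1% of all genes with a window) and GGGCGG (in 38.2%), searched in the same way, also stood in 6 of the 8 each. *Mcm6* lies at chr1:128359745-128359815 on the minus strand, *Mcm5* at chr8:75109347-75109376 on the plus strand and *Mcm3* at chr1:20820265-20820294 on the minus strand. The stretches of *Mcm7* are chr5:138172030-138172059, upstream of the start, and chr5:138171849-138171878, just after it, both on the minus strand. *Cdc6* lies at chr11:98908002-98908031 and *Cdt1* at chr8:122568035-122568064, both on the plus strand.
Mcm6: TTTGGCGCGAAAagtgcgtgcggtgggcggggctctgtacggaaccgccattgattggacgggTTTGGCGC
Mcm5: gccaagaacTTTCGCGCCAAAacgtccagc
Mcm3: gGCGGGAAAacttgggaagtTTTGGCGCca
Mcm7, upstream: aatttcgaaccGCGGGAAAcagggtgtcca
Mcm7, after the start: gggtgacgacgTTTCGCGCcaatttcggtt
Cdc6: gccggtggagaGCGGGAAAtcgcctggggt
Cdt1: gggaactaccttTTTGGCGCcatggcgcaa
*Mcm6* had 3 words, and *Mcm5*, *Mcm3* and *Mcm7* had 2 each, and in *Mcm6* and *Mcm5* a pair of words on opposite strands overlapped. Those of *Mcm5*, *Mcm6* and *Cdc6* and the first of *Mcm7* lay upstream of the RefSeq start, and those of *Mcm3* and *Cdt1* and the second of *Mcm7* within the first 50 transcribed bases. The starts that RefSeq gives for *Mcm7* and *Cdc6* lie inside the longer genes of GENCODE M21. These matches describe the letters and not a bound site, and no factor was measured at them here.

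All 10 genes were lower in Cre TEMs at an adjusted p below 0.05. Of all genes tested, 41.0% passed in either direction and 20.3% were lower. For 9 of the 10, every sample with the Cre lay below every sample without it, which held for 18.2% of the genes tested, and for 36.7% when either direction is counted. Their log2 fold changes lay between -0.49 and -0.20 with a median of -0.40, while the median of all genes tested was -0.0018. The spread within a genotype was small, with coefficients of variation between 0.944% and 8.84%. Because the genes were chosen with earlier results known, the count is a description of this group.

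**Figure D1:**
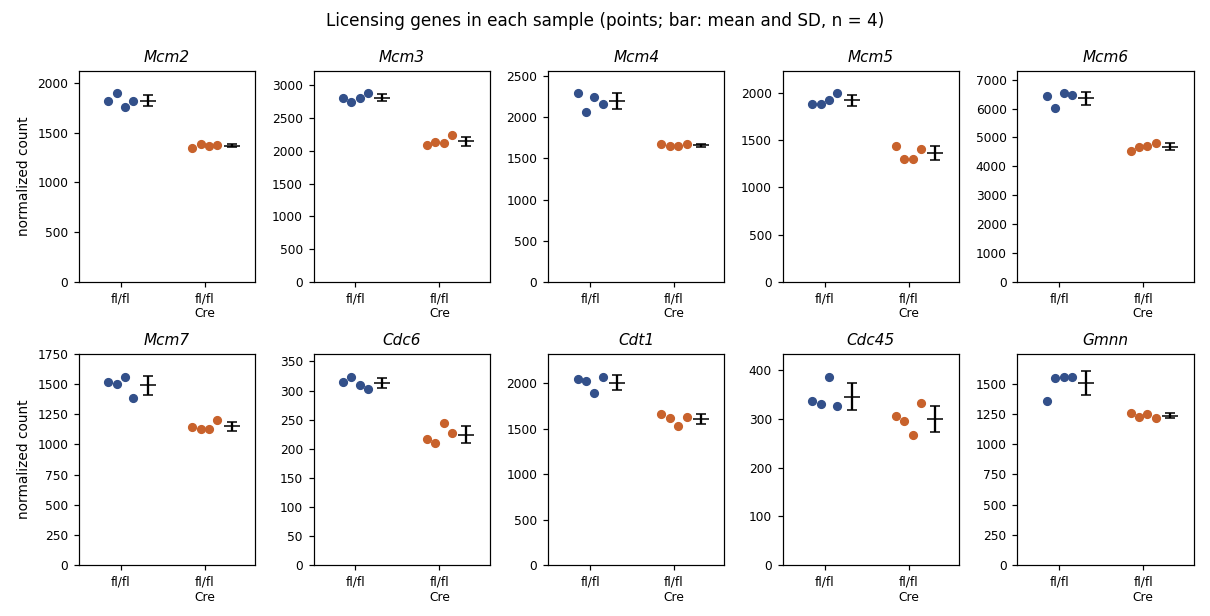
Normalized counts of the 10 genes in each of the 8 samples. Each panel is 1 gene with its own axis from 0, with floxed TEMs (fl/fl, blue) and Cre TEMs (fl/fl Cre, orange) as points and the mean and SD (n = 4) beside them; the genotypes overlap for *Cdc45* alone.

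The 6 subunits of the MCM ring fell together, by 22.8% to 28.9% of their mean. *Mcm6* (ENSMUSG00000026355, chromosome 1 of mm10 from 128331590 to 128359664) was the most abundant of them. Its normalized counts were 6423, 6032, 6527 and 6460 in floxed TEMs and 4546, 4669, 4704 and 4810 in Cre TEMs. The highest sample with the Cre lay 1222 counts below the lowest without it. The log2 fold change was -0.44 (standard error 0.03, adjusted p = 6.5e-11), the smallest p of the 10 genes. *Mcm5* (ENSMUSG00000005410, chromosome 8 from 75109569 to 75128439), at the gate through which the ring opens, had 1881, 1880, 1923 and 1995 normalized counts without the Cre and 1442, 1305, 1305 and 1409 with it. Its change of -0.49 (standard error 0.04, adjusted p = 1.6e-09) was the lowest of the 10, and 2.88% of all genes tested had a fold change as low.

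*Mcm2* (ENSMUSG00000002870, chromosome 6 from 88883474 to 88898780), the subunit at the other side of that gate, whose tail also binds histones, had 1817, 1893, 1758 and 1816 normalized counts in floxed TEMs. In Cre TEMs it had 1343, 1383, 1367 and 1373, a narrow range that lay 375.1 counts below the lowest floxed sample. Its log2 fold change was -0.41 (standard error 0.03, adjusted p = 2.8e-09). *Mcm3* (ENSMUSG00000041859, chromosome 1 from 20802968 to 20820312), the subunit through which the ring is brought to ORC and CDC6, had 2804, 2749, 2804 and 2875 normalized counts without the Cre and 2080, 2129, 2124 and 2235 with it. The gap between the groups, 514.3 counts, was wider than the whole range of either group, and the change was -0.39 (standard error 0.03, adjusted p = 1.5e-09).

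*Mcm4* (ENSMUSG00000022673, chromosome 16 from 15623897 to 15637400), which with *Mcm6* and *Mcm7* forms the part of the ring that unwinds DNA on its own in vitro, had 2290, 2067, 2244 and 2166 normalized counts without the Cre. With the Cre its counts were 1674, 1646, 1645 and 1671, with a coefficient of variation of 0.944%, the lowest of the 10 genes in either genotype. Its change was -0.40 (standard error 0.03, adjusted p = 6.2e-09). *Mcm7* (ENSMUSG00000029730, chromosome 5 from 138164583 to 138172422) had 1521, 1498, 1563 and 1382 normalized counts without the Cre and 1147, 1124, 1130 and 1203 with it. Its change, -0.37 (standard error 0.04, adjusted p = 2.4e-07), was the smallest of the 6 subunits. *Mcm7* overlaps *Cops6* and *Ap4m1* on the opposite strand. The paper names a directional library kit, but the strand setting of the authors' counting is not given in the sources used here. *Cops6* also fell (-0.20, standard error 0.03, adjusted p = 3.5e-05), and its part in the reads of *Mcm7* was not tested.

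Summed over the 6 subunits, the helicase had 386.9, 372.4, 387.4 and 384.9 CPM (recovered reads scaled to the total of the sample) in floxed TEMs. It had 284.5, 286.5, 286.7 and 295.8 in Cre TEMs, a ratio of the means of 0.753. To compare the proportions between the subunits, each subunit was set against the mean of the other 5 in the same sample on the log2 scale. The differences between genotypes in these 6 ratios ran from -0.088 for *Mcm5* to 0.056 for *Mcm7*. The exact two-sided permutation test over 4 against 4 samples gave p between 0.114 and 0.971, and 0.471 to 0.971 after Benjamini-Hochberg adjustment over the 6 ratios. A single ratio could not have gone below 0.171 after that adjustment, and such p-values do not show that the proportions are equal. The largest of the differences, that of *Mcm5*, compares with an SD between samples of 0.050 and 0.074 in the genotypes.

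**Figure D2:**
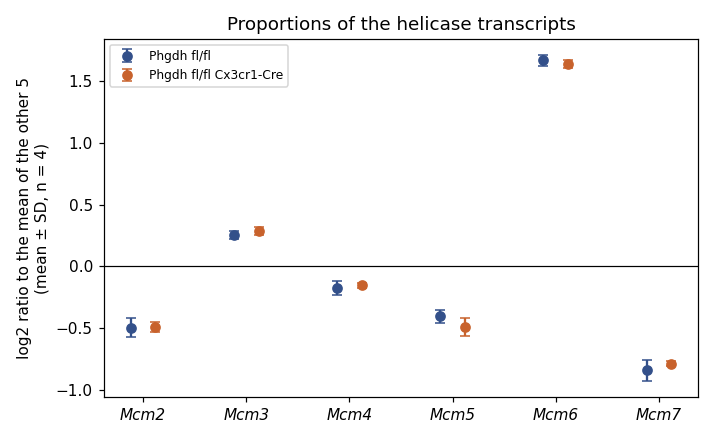
Log2 ratio of each helicase subunit to the mean of the other 5 (y axis), by subunit, as the mean and SD of 4 samples for each genotype. The points of the genotypes lie side by side for each subunit, with *Mcm6* near 1.67 and 1.64 and *Mcm7* near -0.84 and -0.79; the ratios are of reads and not of reads per length.

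Of the loading factors, *Cdc6* fell about as far as the helicase and *Cdt1* less far. *Cdc6* (ENSMUSG00000017499, chromosome 11 from 98907801 to 98923940), the ATPase that loads the ring with ORC, had 315.2, 324, 310.1 and 302.4 normalized counts in floxed TEMs and 216, 209.9, 245 and 226.6 in Cre TEMs. On the log2 scale it changed by -0.48 (standard error 0.07, adjusted p = 1.5e-05), and its groups lay 57.4 counts apart. *Cdt1* (ENSMUSG00000006585, chromosome 8 from 122568015 to 122573554), which carries the MCM ring to the origin, had 2041, 2018, 1894 and 2071 normalized counts without the Cre and 1661, 1617, 1532 and 1622 with it. The change of -0.32 (standard error 0.04, adjusted p = 3.6e-07) corresponds to a mean 19.8% lower, again with no overlap of the groups.

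*Gmnn* (ENSMUSG00000006715, chromosome 13 from 24751845 to 24761923), the inhibitor of CDT1, fell as well. Its normalized counts were 1353, 1546, 1558 and 1553 in floxed TEMs and 1255, 1223, 1245 and 1212 in Cre TEMs. Replicate 1 of the floxed TEMs stood apart below the other 3 and still lay above every sample with the Cre. The change was -0.28 (standard error 0.04, adjusted p = 1.6e-05). The loader and its inhibitor thus moved in the same direction, and the level of *Cdt1* per length was 0.687 of that of *Gmnn* without the Cre and 0.671 with it.

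*Cdc45* (ENSMUSG00000000028, chromosome 16 from 18780447 to 18811987), the helicase activator, changed the least and is the member whose call rests on single samples. It had 336.5, 331.3, 386.6 and 326.3 normalized counts in floxed TEMs and 306, 296.2, 267.4 and 331.6 in Cre TEMs. Replicate 4 with the Cre lay above 2 of the samples without it, so that the groups overlapped. The log2 fold change was -0.20 (standard error 0.08, adjusted p = 0.0384), and the exact two-sided permutation test of 4 against 4 samples gave p = 0.0857, where the smallest p it can give is 0.0286. Without replicate 3 of the floxed TEMs the change was -0.15 (adjusted p = 0.148). Without replicate 1, 2 or 3 of the Cre TEMs the adjusted p was 0.0541, 0.0748 and 0.148. It also missed the threshold with DESeq2 (0.0648).

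Levels per length were compared as FPKM, computed from the recovered reads and the longest principal protein-coding transcript of each gene. In floxed TEMs *Mcm6* was highest at 50.4 ± 1.72 FPKM (SD, n = 4), followed by *Gmnn* at 30.8 ± 2.01 FPKM. *Mcm3* at 21.4 ± 0.377 FPKM and *Cdt1* at 21.1 ± 0.840 FPKM came next, and their samples overlapped. *Mcm4* (14.1 FPKM), *Mcm5* (13.1 FPKM), *Mcm2* (12.5 FPKM) and *Mcm7* (11.6 FPKM) followed, with overlapping samples between each gene and the next. *Cdc45* at 3.72 ± 0.296 FPKM and *Cdc6* at 2.82 ± 0.0850 FPKM were lowest and did not overlap. The subunits of the ring thus spanned a 4.34-fold range of FPKM without the Cre and a 4.14-fold range with it, although the ring holds them in equal number. With the merged exons of all transcripts as length, *Mcm2* and *Mcm7* exchanged places in the order.

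Some members share their promoter region with a neighbour that is transcribed the other way, which gives a comparison close by on the chromosome. In GENCODE M21, *Mcm4* starts 466 bases from *Prkdc*, *Mcm7* starts 420 bases from *Ap4m1* and *Cdc45* starts 208 bases from *Ufd1*. *Cdc45* and *Ufd1* also overlap on opposite strands, as *Mcm7* and *Ap4m1* do. The part of such a neighbour in the reads of *Cdc45* or *Mcm7* was not tested. *Prkdc*, the catalytic subunit of the DNA-dependent protein kinase of double-strand break repair, was higher with the Cre, at 1210 ± 30.6 against 1020 ± 64.5 normalized counts (SD, n = 4 each). Its log2 fold change was 0.25 (standard error 0.04, adjusted p = 9.3e-05), so that *Mcm4* and *Prkdc* changed in opposite directions. *Ap4m1*, a subunit of the AP-4 adaptor of vesicle transport, had a change of 0.041 (adjusted p = 0.438), and *Ufd1*, a cofactor of the VCP segregase, one of -0.0083 (adjusted p = 0.884). Each of the 3 log2 ratios of a member to its neighbour was lower in every sample with the Cre, by -0.65 for *Mcm4*, -0.41 for *Mcm7* and -0.19 for *Cdc45*, with p = 0.0286 in the exact two-sided permutation test, the smallest it can give. These ratios were chosen after the values were seen. Each holds the difference of the member itself, so that its p-value is no separate support for that difference. *Cdc45* on its own gave p = 0.0857 in the same permutation test, with overlapping groups.

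**Figure D3:**
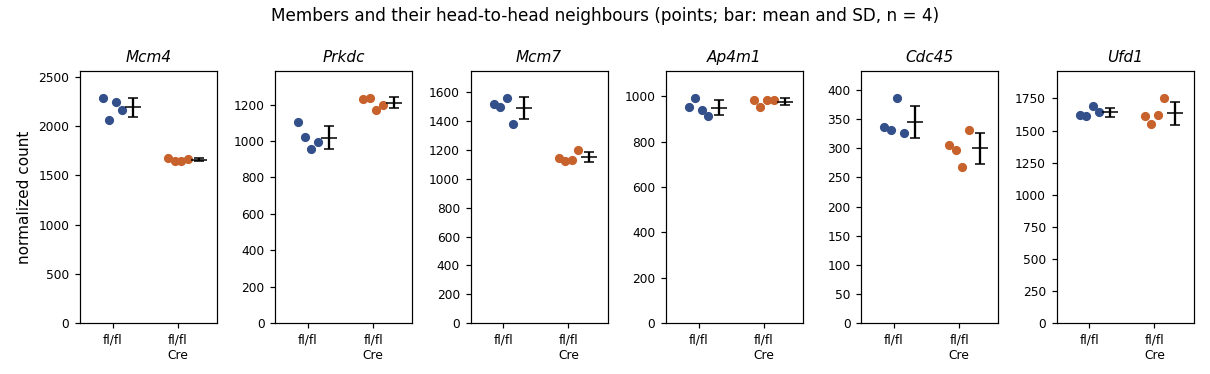
Normalized counts of *Mcm4*, *Mcm7* and *Cdc45*, each followed by its head-to-head neighbour *Prkdc*, *Ap4m1* and *Ufd1*, in the 8 samples (points, with mean and SD, n = 4, and an axis from 0 in each panel). *Mcm4* is lower and *Prkdc* higher in the samples with the Cre (orange), and the samples of *Ap4m1* and *Ufd1* overlap between the genotypes.

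Genes that act beside these at the origin were counted from lists. Of 11 genes of origin recognition and helicase loading, 1 was lower (against 20.3% of all genes tested), 2 were higher (against 20.8%) and 8 did not pass, with a median log2 fold change of -0.021. The share higher was near that over all genes. *Orc6*, the smallest subunit of the origin recognition complex, fell by 0.22 on the log2 scale (from 569 ± 43.6 to 488 ± 21.2 normalized counts, SD, n = 4 each, adjusted p = 0.00502). *Orc1*, its subunit that is regulated through the cell cycle, had 100.3 to 118.7 normalized counts in floxed TEMs and 77.6 to 104.1 in Cre TEMs, which overlap, and missed the threshold (-0.30, adjusted p = 0.0535). *Orc5* rose (0.11, adjusted p = 0.0371), as did *Kat7*, the acetyltransferase HBO1 of histone H4 at origins (0.10, adjusted p = 0.00567). *Orc2*, *Orc3* and *Orc4* had adjusted p-values of 0.171, 0.910 and 0.644. *Mcm8* and *Mcm9*, relatives of the ring subunits that act in recombination, had changes of 0.20 and 0.081 (adjusted p = 0.105 and 0.275).

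Among 13 genes that turn the loaded ring into the CMG helicase and fire the origin, 5 were lower, against 20.3% of all genes tested, and 8 did not pass, with a median of -0.074. The GINS complex, the other partner of the ring in CMG, was split. *Gins1* had 288.2, 337.8, 378.3 and 343.5 normalized counts without the Cre and 257.7, 244.2, 272.5 and 253.8 with it (-0.38, standard error 0.08, adjusted p = 0.000465). *Gins2* had 667 ± 26.1 and 516 ± 27.8 (SD, n = 4 each, -0.37, adjusted p = 7.8e-06), and *Gins4* also fell (-0.18, adjusted p = 0.00110). *Gins3*, the remaining subunit, had 353 ± 21.5 and 367 ± 20.1 (0.054, adjusted p = 0.542). *Mcm10*, which helps to start the assembled helicase, fell by 0.36 on the log2 scale (adjusted p = 5.3e-05), and *Mtbp*, a partner of the firing factor *Ticrr*, was lower as well (-0.21, adjusted p = 0.0418). The kinase subunits *Cdc7* (-0.017, adjusted p = 0.915) and *Dbf4* (0.11, adjusted p = 0.0571), which switch the ring on by phosphorylation, did not pass.

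Downstream at the fork, 18 of 29 genes of the polymerases, the sliding clamp and fork protection were lower, against 20.3% of all genes tested, and 3 were higher, against 20.8%. The other 8 did not pass, and the median was -0.16. *Pcna*, the clamp itself, had 16561, 16934, 17553 and 16980 normalized counts without the Cre and 12918, 13185, 13675 and 12876 with it, a change of -0.37 (standard error 0.02, adjusted p = 1.4e-10). *Timeless*, which travels with CMG, fell furthest in the list (-0.58, standard error 0.05, adjusted p = 9.4e-09), and the ligase *Lig1* fell by 0.29 (adjusted p = 1.3e-06). *Pold3*, a subunit of polymerase delta, was among the genes that rose (0.23, adjusted p = 1.2e-05).

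Of 10 genes of the ubiquitin ligases that remove licensing proteins, 2 were lower and 2 higher, shares near the 20.3% and 20.8% of all genes tested, with a median of 0.0061. *Dtl*, the receptor that brings CDT1 to its ligase in S phase, was lower, at 503 ± 19.9 against 622 ± 31.9 normalized counts (SD, n = 4 each, -0.30, adjusted p = 8.5e-05). Its partners in that ligase, *Ddb1* and *Cul4b*, rose by small amounts (0.096 and 0.14, adjusted p = 0.00112 and 0.00279), and *Skp1* of another ligase fell by 0.087 on the log2 scale (adjusted p = 0.0221).

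Several mitotic genes were higher. Of 15 mitotic and proliferation markers, 8 were higher with the Cre, where 20.8% of the genes tested were higher, and 7 did not pass, with a median log2 fold change of 0.16. The number lower was 0 with limma, edgeR and DESeq2, and 0 at an unadjusted p under 0.05. *Mki67*, the gene of the Ki-67 antigen of cycling cells, had 2200, 1845, 2057 and 2086 normalized counts without the Cre and 3046, 2835, 2850 and 3226 with it. That is a change of 0.55 (standard error 0.05, adjusted p = 5.3e-09). *Cenpf* and *Cenpa*, of the kinetochore and its nucleosome, rose by 0.54 and 0.41 (adjusted p = 9.8e-06 and 2.0e-05) and *Top2a*, the topoisomerase of dividing cells, by 0.16 (adjusted p = 0.000816). *Cdk1*, the kinase that starts mitosis, had means of 1269 and 1263 normalized counts and a change of -0.0053 (adjusted p = 0.946).

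In each sample, the mean log2 level of *Mcm2* to *Mcm7* was set beside that of the 15 mitotic markers. The mean of the helicase was higher than that of the markers by 2.33, 2.38, 2.34 and 2.34 in floxed TEMs and by 1.70, 1.75, 1.80 and 1.69 in Cre TEMs. The difference was smaller in every sample with the Cre than in any without it. It restates the changes of the helicase and of the markers given above and is no separate support for them.

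**Figure D4:**
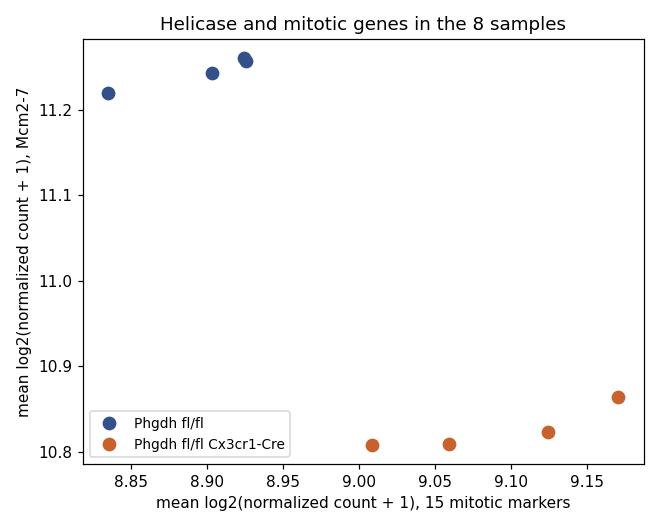
Mean log2(normalized count + 1) of *Mcm2* to *Mcm7* (y axis) against that of 15 mitotic markers (x axis), 1 point per sample; the axes do not start at 0. The 4 samples of floxed TEMs (blue) lie at 11.2 or more on the y axis and up to 8.93 on the x axis, and the 4 with the Cre (orange) lie up to 10.9 and from 9.01 onwards.

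**Figure D5:**
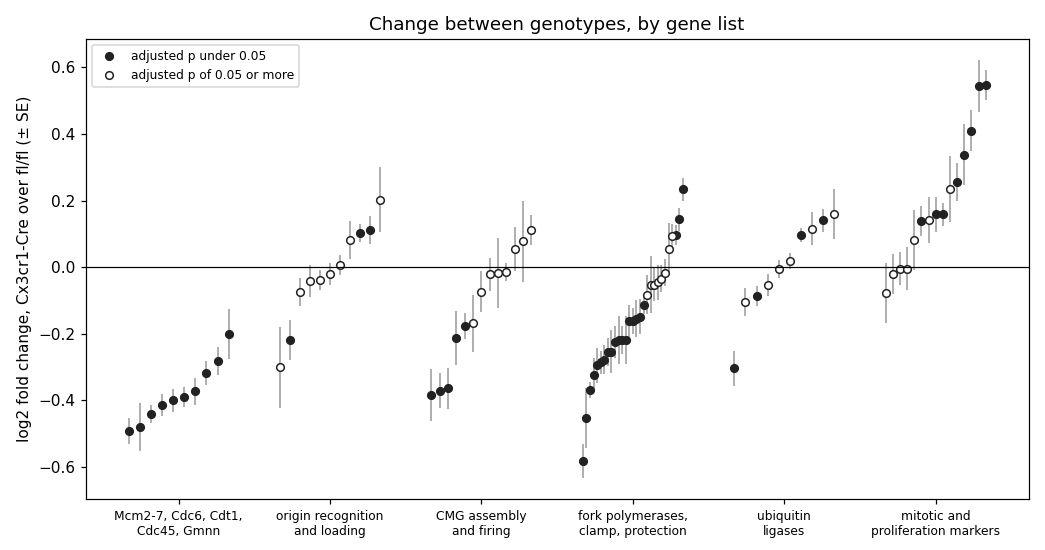
Log2 fold changes (± standard error) between the genotypes, 1 point per gene, ordered by size within each list; filled points have a limma adjusted p under 0.05 over all genes. The 10 licensing genes lie between -0.49 and -0.20. Each of the other lists has genes on both sides of 0, and the mitotic markers run from -0.077 to 0.55.

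The genes whose pattern over the 8 samples was most like the mean log2 level of *Mcm2* to *Mcm7* were ranked by Pearson correlation among the 10505 non-members whose mean reached 100 normalized counts. The first 5 were *Folr2* (0.996), *Slc25a20* (0.995), *Lcp1* (0.995), *Odc1* (0.995) and *Anapc15* (0.994). The points share the contrast of genotypes, so that a gene with a steady difference between them ranks high. When the genotype means were taken off, the first 5 were *Lrrc14b* (0.947), *Eif4a-ps4* (0.945), *Knop1* (0.940), *Taf1b* (0.937) and *Pml* (0.934). None of them was among the first 5 before. With 8 samples and 10505 genes ranked, such values can also arise by chance, which was not tested. Among the members themselves, the correlation of these deviations over their 45 pairs had a median of -0.040 and was above 0 for 21 pairs.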

How the data were processed

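The authors mapped single-end reads to mm10 with TopHat2, counted them per gene with HTSeq 0.6 and compared the genotypes with DESeq2, per the labels and the paper. The values per sample that the authors deposited are a signal, read counts divided by a size factor (0.889 to 1.09), although they are called FPKM. Whole reads came out for 100% of the 144353 values above 0 (within 0.01). The mean the authors deposited is the same signal. Their own comparison, which the authors deposited as a log2 fold change with its error, a Wald score and p-values, was not used.

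The genotypes (4 samples each, biological replicates by the series' design) were grouped by title. The test was limma 3.58.1 under R 4.3.3 (trend, two-sided, Benjamini-Hochberg, no covariate) on log2(normalized count + 1), a scale that understates changes of low genes, for the 13629 genes with a mean of at least 10. On the recovered reads, edgeR 4.0.16 and DESeq2 1.42.0 were alternatives, and the fits were tested on simulated data. Other alternatives were the pseudocount, the filter, the scaling, no trend, a replicate block and leaving out each sample. Totals of 38219563 reads or more gave each member at least 192 reads per sample.

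The members and lists were chosen with earlier results of these data known, and the promoter words and the ratios to neighbours after values were seen. The text names all members, *Phgdh*, the 4 smallest p-values of each list, genes that complete a named complex, head-to-head neighbours (starts within 1000 bases) and the 5 genes most like *Mcm2* to *Mcm7* on each measure. *Mcm8*, *Mcm9*, *Mcmbp*, *Mtbp*, *Cdc7*, *Dbf4*, *Cdk1* and *Cops6* were added after their values were seen. Processed pseudogenes at least 85% identical over at least 300 bases exist for *Cdc6* (95.2%), *Gmnn* (93.5%), *Mcm4* (91.1%) and *Mcm7*. That of *Mcm7* (*Gm5487*, 97.7% identical) had a mean of 4.59 normalized counts, and the others had no values among the 18635 genes.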

Additional observations from a re-analysis of the deposited data

Results flagged for a closer look

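Of the 20 groups of 4 samples that the 10 genes give, 2 held a sample far from its group by Dixon's ratio of the gap to the range, where chance flags about 1 in 20. For *Gmnn*, replicate 1 of the floxed TEMs had 1353 normalized counts and the other 3 had between 1546 and 1558, a ratio of 0.944. Without it the log2 fold change was -0.33 (limma adjusted p = 8.6e-08), against -0.28 with all samples. For *Cdc45*, replicate 3 of the floxed TEMs had 386.6 normalized counts and the others between 326.3 and 336.5, a ratio of 0.830 that barely passed. Without it the log2 fold change of *Cdc45* was -0.15 (adjusted p = 0.148).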

How the results depend on the processing

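Over 17 other settings for each of the 10 genes, all 170 log2 fold changes were negative, and the 153 of the genes other than *Cdc45* all had an adjusted p under 0.05. *Cdc45* passed in 9 of its 17 settings (adjusted p 0.0188 to 0.148). It missed with scaling to total reads (0.0536), without the trend (0.0860), with DESeq2 (0.0648), with the replicate block (0.0523) and without some samples. The number of the 10 genes called lower was thus 9 or 10 in each setting. The number of all genes called lay between 4930 and 5917, and scaling to total reads turned 2764 lower and 2830 higher genes into 2450 and 3146. Small counts in the lists moved. Genes of CMG assembly called higher were 1 in place of 0 with the filter at 100 and with total reads (0 to 1 with a sample left out). Ligases called lower were 1 in place of 2 with total reads and without the trend (1 to 3 with a sample left out). Origin recognition genes called lower were 2 in place of 1 with quantile normalization (1 to 2 with a sample left out), and those called higher were 1 in place of 2 with the replicate block and DESeq2 (1 to 2 with a sample left out). Fork genes called lower were 18 with all samples and 14 without replicate 1 of the Cre TEMs, the lowest number. Mitotic markers called higher were 8 with all samples. They were 6 without that replicate and 9 with total reads, the lowest and highest numbers. The cause of these moves was not tested. The replicate numbers are not said to mark a shared origin. Same-numbered samples correlated in their deviations at 0.063, 0.098, 0.126 and 0.078. Replicates 1 and 4 also correlated above 0 across the genotypes (0.076 and 0.135), as did replicates 2 and 3 (0.048 and 0.075). All other pairs of a floxed and a Cre sample lay below 0 (-0.124 to -0.036). The second principal component (13.2% of the variance) split both genotypes in the same way. What these replicates share was not tested, and no block by these pairs was fitted. The replicate block called 5597 genes, against 5594 without it. *Cdc6* and *Cdc45* had the fewest reads of the 10 genes, so that their counting error was the largest.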

Other observations

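The promoter words differed between the licensing genes and the mitotic markers. E2F words stood in 6 of 8 windows of licensing genes and in 1 of 14 windows of mitotic markers (*Cdk1*). The words TTTGAA and TTCGAA, of the CHR type known from promoters of mitotic genes, were searched on both strands in the same windows. They stood in 3 of 8 licensing genes (*Mcm2*, *Mcm7* and *Cdc45*) and in 11 of 14 mitotic markers, against 21.7% of all genes with a window. These are counts of letters chosen after the values were seen, and no test was made of them.

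Over all genes tested that have a window, 473 held an E2F word, of which 123 (26.0%) were lower and 73 (15.4%) higher in Cre TEMs by limma. Of the 9445 genes without such a word, 1987 (21.04%) were lower and 2115 (22.4%) higher. The 473 include 6 of the licensing genes, all lower, and the list genes named below. The words were chosen after the values were seen, so that these shares are a description, and no test was made of them. Of 8 fork genes with the word, 6 were lower (*Pola1*, *Pold1*, *Pole2*, *Pole4*, *Rfc3* and *Lig1*, log2 fold changes -0.45 to -0.15), 1 was higher (*Pold3*, 0.23, adjusted p = 1.2e-05) and *Clspn* did not pass (-0.083, adjusted p = 0.270). In the whole fork list, with or without the word, 18 of 29 genes were lower. Of the 5 genes of CMG assembly that were lower, 0 were found to hold the word. Of the ligase genes, *Dtl* held it and was lower (-0.30, adjusted p = 8.5e-05), and *Rbx1* held it and did not pass (-0.10, adjusted p = 0.0559). *Orc1*, *Orc3*, *Mcmbp* and *Mcm8* held it, with adjusted p-values of 0.0535, 0.910, 0.323 and 0.105 (limma). *Gins3* and *Topbp1* held it and did not pass (0.054 and -0.014, adjusted p = 0.542 and 0.713). These genes were named for the word, after their values were seen. *Mcm2* and *Cdc45*, whose windows held none of the 4 words, had log2 fold changes of -0.41 and -0.20. The part of the words in any of these changes was not tested.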
